A study of Mus musculus with 14 samples.

Results

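Interferon-stimulated genes were followed across small intestinal organoids of 4 genotypes. The set holds 38 genes chosen by symbol, among them *Isg15*, the *Oas*, *Ifit* and *Mx* families, *Irf7*, *Stat2*, *Rsad2* and *Ifi27*, and all 38 have a row in the expression table of 18781 genes. Of these, 33 passed a filter on the mean over all 14 libraries (log2 value of 3.32, or 10 back-transformed) and were tested among the 12802 genes that did so. The organoids are crypt-derived epithelial cultures grown in Intesticult medium without treatment, and their mRNA was sequenced as stranded libraries. The WT controls (n = 4) carried floxed alleles of both *Atg16l1* and *Rnaseh2b* but no Cre recombinase, as their labels give it. The study's text names this control by its floxed *Rnaseh2b* alleles alone, and the difference could not be settled here. In *Atg16l1* ΔIEC (n = 4), *Rnaseh2b* ΔIEC (n = 2) and *Atg16l1/Rnaseh2b* ΔIEC organoids (n = 4), the floxed alleles of the gene or genes named were removed by 1 copy of Villin-Cre, which acts in intestinal epithelial cells. Neither the age of the mice nor the animal behind each library is given in the labels, so p-values measure the spread between these libraries, which may be technical.

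Interferons bind receptors that signal through kinases of the JAK family to transcription factors, among them STAT2 and IRF9. These enter the nucleus and switch on interferon-stimulated genes, whose products sense viral RNA, block replication or tune the response itself. The epithelium of the intestine answers mainly to type III interferon. RNase H2 removes ribonucleotides from genomic DNA, and its loss is known in other settings to raise interferon-stimulated genes through sensing of nucleic acids. ATG16L1 is a core protein of autophagy.

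In these data the interferon-stimulated genes were modestly higher in both single knockouts than in WT organoids. The median of the 33 tested members was 0.24 above WT on the log2 scale in *Atg16l1* ΔIEC and 0.21 above it in *Rnaseh2b* ΔIEC organoids. All WT libraries ran in sequencing lane 1 and all single knockout libraries in lane 2, so lane and genotype cannot be told apart in these 2 comparisons. With lane as a covariate, which rests on the *Atg16l1/Rnaseh2b* ΔIEC libraries as the 1 genotype in both lanes, the medians were 0.53 and 0.57. That lane term is the difference between the pairs of *Atg16l1/Rnaseh2b* ΔIEC libraries described below. The higher medians follow from it and are no separate measure of the single knockouts. In *Atg16l1/Rnaseh2b* ΔIEC organoids the libraries did not give 1 level. In libraries 1 and 2 single members differed from WT in both directions (*Ifitm3* by 1.04, *Samd9l* by -0.55). The members' medians there were -0.07 and 0.00 relative to the WT mean, whereas in libraries 3 and 4 both lay 0.33 above it. The corresponding medians were 0.11, 0.19, 0.36 and 0.32 in the *Atg16l1* ΔIEC libraries, 0.24 and 0.20 in the *Rnaseh2b* ΔIEC libraries, and -0.06 to 0.06 in the WT libraries.

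**Figure D1:**
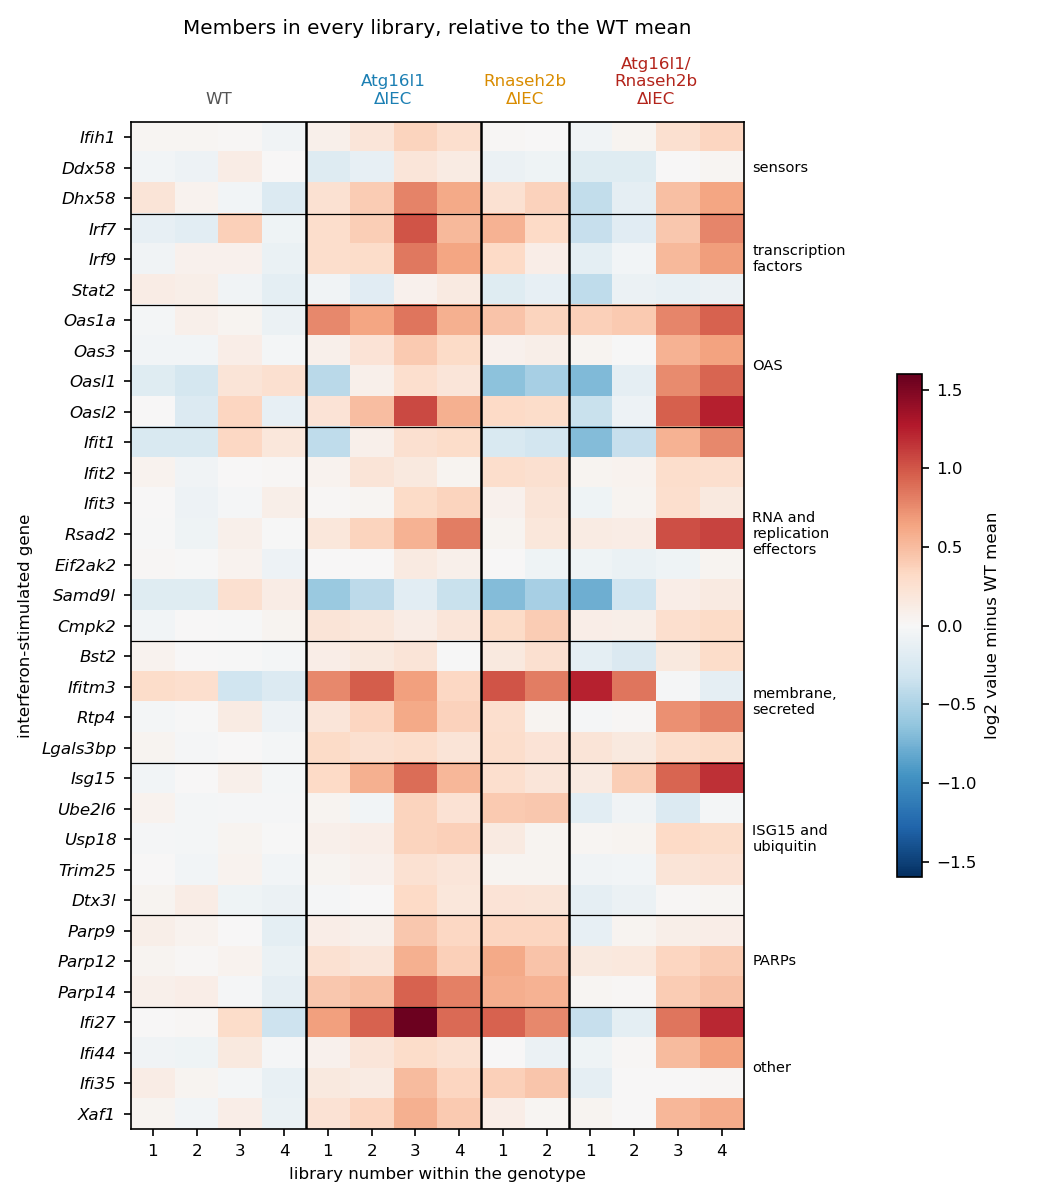
Heat map of the 33 tested members (rows, grouped by role) in the 14 libraries (columns, by genotype and library number); colour gives the log2 value minus the mean of the 4 WT libraries. Libraries 3 and 4 of Atg16l1/Rnaseh2b ΔIEC organoids are red over most rows, with a median of 0.33 each. Libraries 1 and 2 have medians near WT, at -0.07 and 0.00, with members in both directions.

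Transcripts of both targeted genes were reduced in the corresponding genotypes without any overlap with WT. Each was less reduced in *Atg16l1/Rnaseh2b* ΔIEC organoids than in its single knockout. The part of this in the comparisons that involve the double knockout was not tested. *Atg16l1* was at 9.43 to 9.54 in WT, 6.73 to 7.35 in *Atg16l1* ΔIEC and 8.14 to 8.57 in *Atg16l1/Rnaseh2b* ΔIEC libraries, and *Rnaseh2b* was at 8.41 to 8.70 in WT, 7.15 to 7.21 in *Rnaseh2b* ΔIEC and 7.68 to 7.92 in *Atg16l1/Rnaseh2b* ΔIEC libraries. Epithelial markers were high throughout (*Krt8* mean 14.82), whereas 4 of 8 immune markers and 4 of 7 stromal or endothelial markers with a row lay below the filter, including *Itgax* at -1.97 and *Col1a2* at -1.33. By the library names, *Atg16l1/Rnaseh2b* ΔIEC libraries 1 and 2 ran in lane 2 and libraries 3 and 4 in lane 1. Within a genotype, libraries 1 and 2, and likewise 3 and 4, deviated together from the genotype mean (r across genes from 0.41 to 0.86 in 6 pairs) and shared the level of *Xist*, the X-inactivation transcript, and of Y-linked genes. *Xist* was at 7.56 and 7.70 in *Atg16l1/Rnaseh2b* ΔIEC libraries 1 and 2 and at 13.78 and 13.65 in libraries 3 and 4. In the *Atg16l1* ΔIEC libraries the higher pair by interferon-stimulated genes, libraries 3 and 4, had the low *Xist* level (7.75 and 7.80). Lane, pair and sex coincide in *Atg16l1/Rnaseh2b* ΔIEC organoids, and their parts in the results below cannot be told apart there.

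The members differed widely in level. Per kilobase of exon, on the linear scale of the back-transformed values, the highest WT level was 3270 for *Lgals3bp*, a secreted glycoprotein, followed by 750 for *Bst2* (tetherin, which holds budding virus at the membrane), 534 for *Trim25*, a ubiquitin ligase of the RIG-I pathway, and 490 for *Oasl1*. The lowest tested level was 2.12 for *Ifi44*. The 5 members with means below the filter were the antiviral GTPases *Mx1* (2.15) and *Mx2* (3.10), *Oas2* (2.45), the ISG15 ligase *Herc6* (3.15) and the nuclear body gene *Sp100* (3.19). Their values were pulled together by the transformation, so that *Mx1* ranged only from 2.10 to 2.22 over all 14 libraries, and no test was made on them. Just above the filter lay *Usp18*, at 3.75. *Oas2* nevertheless stood at 2.67 and 2.71 in *Atg16l1/Rnaseh2b* ΔIEC libraries 3 and 4 and at 2.37 to 2.46 in the other 12 libraries.

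Promoter sequence was described for the members. As genes known to be switched on through STAT2 and IRF9, they were likely to hold sites for these factors. The shares below are thus no separate evidence for the set. The interferon-stimulated response element, a site bound by complexes that hold STAT2 and IRF9, was searched as GAAANNGAAA on both strands in windows of 250 bases before to 50 bases after the start site (RefSeq, GRCm38.p6). A window was found for 29 of the 38 members, and 12 of these 29 (41.4%) held the letters, against 3.99% of all 27025 genes with a window. The gamma-activated sequence, searched as TTCNNNGAA, was found in 6 of the 29 (20.7%), against 9.55% of all genes. The 150 bases before the start site are shown for the 6 members with all matches inside them, so that each element can be read in its place before the gene. They lie at chr4:156200819-156200968 (*Isg15*), chr5:120907526-120907675 (*Oas1a*), chr5:120777660-120777809 (*Oas3*), chr12:26456453-26456602 (*Rsad2*) and chr8:71537473-71537622 (*Bst2*) on the minus strand and chr19:34640739-34640888 (*Ifit1*) on the plus strand, and are written from 5′ to 3′ on the gene's own strand with the matches, or their reverse complement TTTCNNTTTC, in capitals.
Isg15: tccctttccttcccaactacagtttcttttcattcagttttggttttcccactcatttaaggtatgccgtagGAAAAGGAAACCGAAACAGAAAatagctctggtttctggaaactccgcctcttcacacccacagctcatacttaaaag
Oas1a: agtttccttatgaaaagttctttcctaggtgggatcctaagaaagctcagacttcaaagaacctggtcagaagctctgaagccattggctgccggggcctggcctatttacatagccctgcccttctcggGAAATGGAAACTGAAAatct
Oas3: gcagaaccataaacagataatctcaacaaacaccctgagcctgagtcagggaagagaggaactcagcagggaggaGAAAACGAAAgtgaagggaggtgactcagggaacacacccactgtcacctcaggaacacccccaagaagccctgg
Rsad2: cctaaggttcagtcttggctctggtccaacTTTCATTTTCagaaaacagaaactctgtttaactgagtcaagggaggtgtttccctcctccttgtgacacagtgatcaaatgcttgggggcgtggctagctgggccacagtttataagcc
Ifit1: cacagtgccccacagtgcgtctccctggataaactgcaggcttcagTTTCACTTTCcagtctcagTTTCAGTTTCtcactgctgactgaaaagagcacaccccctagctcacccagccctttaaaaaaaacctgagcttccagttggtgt
Bst2: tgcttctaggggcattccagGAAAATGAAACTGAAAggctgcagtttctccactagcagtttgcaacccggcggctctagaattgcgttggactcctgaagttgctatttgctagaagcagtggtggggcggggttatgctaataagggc

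In *Isg15* 3 overlapping matches ran from base -78 to base -57 before the start site, and in *Oas1a* 2 overlapping matches ended 5 bases before it. *Rsad2* and *Ifit1* held the element on the opposite strand. A match is a description of letters and does not show binding. The difference of *Atg16l1/Rnaseh2b* ΔIEC libraries 3 and 4 minus 1 and 2, described below, had a median of 0.36 over the 12 tested members with the letters, 0.27 over the 15 without them and 0.59 over the 6 with no window.

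The first comparison asked how deletion of *Rnaseh2b* alone changed these genes. Against WT, 9 of 33 members rose in *Rnaseh2b* ΔIEC organoids and 0 fell (limma, Benjamini-Hochberg adjusted p under 0.05), while 14.4% of all genes tested rose, 12.3% fell and 26.7% changed in either direction. Counted in either direction, the members' share of 27.3% was near that of all genes, and the members differed in that all 9 rose. The members' median change of 0.21 compares with 0.0024 over all genes tested, and 26 of 33 members were higher. Both *Rnaseh2b* ΔIEC libraries had the low *Xist* level (7.66 and 7.73). WT libraries 1 and 2 had it too (7.70 and 7.69), but libraries 3 and 4 did not (13.68 and 13.60), so sex was not balanced in this comparison. With sex as a covariate, added after seeing the data, 9 members rose and 0 fell, where 1743 of all 12802 genes tested rose. With the library pairs as a random block (consensus correlation 0.65), 2 of the 9 members called in the main fit, *Cmpk2* and *Parp12*, stayed past the threshold, where 3.34% of all genes rose. Averaging the pairs leaves 1 value for *Rnaseh2b* ΔIEC organoids. No gene tested passed in that fit, so it cannot decide on the members. All 3 ADP-ribosyltransferases among the members, enzymes that modify viral and host proteins, were past the threshold, whereas *Parp10* (0.06) and *Parp11* (-0.14) of the wider interferon list were not.

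*Parp14* (chromosome 16, 35832874 to 35871544 in GRCm38) was at 7.93, 7.96, 7.83 and 7.70 in WT, 8.28, 8.33, 8.79 and 8.66 in *Atg16l1* ΔIEC, 8.43 and 8.40 in *Rnaseh2b* ΔIEC and 7.88, 7.87, 8.25 and 8.32 in *Atg16l1/Rnaseh2b* ΔIEC libraries. Both single knockouts lay wholly above WT, and the *Atg16l1/Rnaseh2b* ΔIEC libraries were split, libraries 1 and 2 within the WT range and libraries 3 and 4 above it. The *Rnaseh2b* ΔIEC change was 0.56 (standard error 0.16, limma adjusted p = 0.018). *Parp12* was at 8.04, 8.02, 8.05 and 7.89 in WT, 8.24, 8.20, 8.57 and 8.38 in *Atg16l1* ΔIEC, 8.61 and 8.46 in *Rnaseh2b* ΔIEC and 8.16, 8.17, 8.35 and 8.40 in *Atg16l1/Rnaseh2b* ΔIEC libraries. All 10 knockout libraries exceeded all 4 WT libraries for this gene. Its *Rnaseh2b* ΔIEC change was 0.54 (standard error 0.10, limma adjusted p = 0.0027). *Parp9* changed by 0.35 (standard error 0.10, limma adjusted p = 0.020), from 9.52, 9.47, 9.42 and 9.27 in WT to 9.77 and 9.77 in *Rnaseh2b* ΔIEC libraries. *Parp9* and its partner *Dtx3l*, a ubiquitin ligase (0.21, limma adjusted p = 0.10), overlap on opposite strands over 682 bases of chromosome 16 (35938470 to 35939151), so reads there are uncertain unless counted by strand, a setting not given in the sources used here.

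The ISG15 system attaches a ubiquitin-like protein to newly made proteins, with UBE2L6 as the conjugating enzyme. *Ube2l6* was at 7.92, 7.83, 7.84 and 7.84 in WT, 7.90, 7.82, 8.21 and 8.09 in *Atg16l1* ΔIEC, 8.28 and 8.29 in *Rnaseh2b* ΔIEC and 7.69, 7.81, 7.64 and 7.83 in *Atg16l1/Rnaseh2b* ΔIEC libraries. The *Rnaseh2b* ΔIEC libraries were above every other library, and the *Atg16l1/Rnaseh2b* ΔIEC libraries did not exceed WT. Its *Rnaseh2b* ΔIEC change was 0.43 (standard error 0.09, limma adjusted p = 0.0058). *Ifi35*, a leucine zipper protein that partners NMI, was at 9.58, 9.50, 9.43 and 9.34 in WT, 9.62, 9.59, 9.97 and 9.81 in *Atg16l1* ΔIEC, 9.84 and 9.91 in *Rnaseh2b* ΔIEC and 9.32, 9.46, 9.46 and 9.48 in *Atg16l1/Rnaseh2b* ΔIEC libraries. It lay above WT in every single knockout library and within or just below the WT range in the *Atg16l1/Rnaseh2b* ΔIEC libraries. The *Rnaseh2b* ΔIEC change was 0.41 (standard error 0.10, limma adjusted p = 0.0078).

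Other members past the threshold in *Rnaseh2b* ΔIEC organoids were *Oas1a* (0.40), *Cmpk2* (0.36), *Ifit2* (0.26) and *Lgals3bp* (0.25). *Isg15* itself was not among them (0.23, 95% confidence interval -0.24 to 0.71, limma adjusted p = 0.47). *Oasl1*, which in mice restrains translation of *Irf7*, stood at 9.66 and 9.79 against 10.04 to 10.58 in WT (-0.59, limma adjusted p = 0.24). *Samd9l*, a restriction factor for poxviruses, stood at 10.34 and 10.50 against 10.83 to 11.28 in WT (-0.60, limma adjusted p = 0.054). Over the 33 members, 16 lay wholly above WT and 3 wholly below it, against 28.4% and 27.0% of all genes, and with 2 libraries against 4 the exact permutation test, two-sided, cannot go below 0.13. Leaving out *Rnaseh2b* ΔIEC library 1 or 2 left 3 members past the threshold, where 1135 and 1239 of all 12802 genes tested were past it. The enterocyte markers were also higher in these 2 libraries, by medians of 1.09 and 1.16 over 10 genes, and their part in the result was not tested. In bulk RNA, fewer cells of a type and less RNA per cell cannot be told apart.

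**Figure D2:**
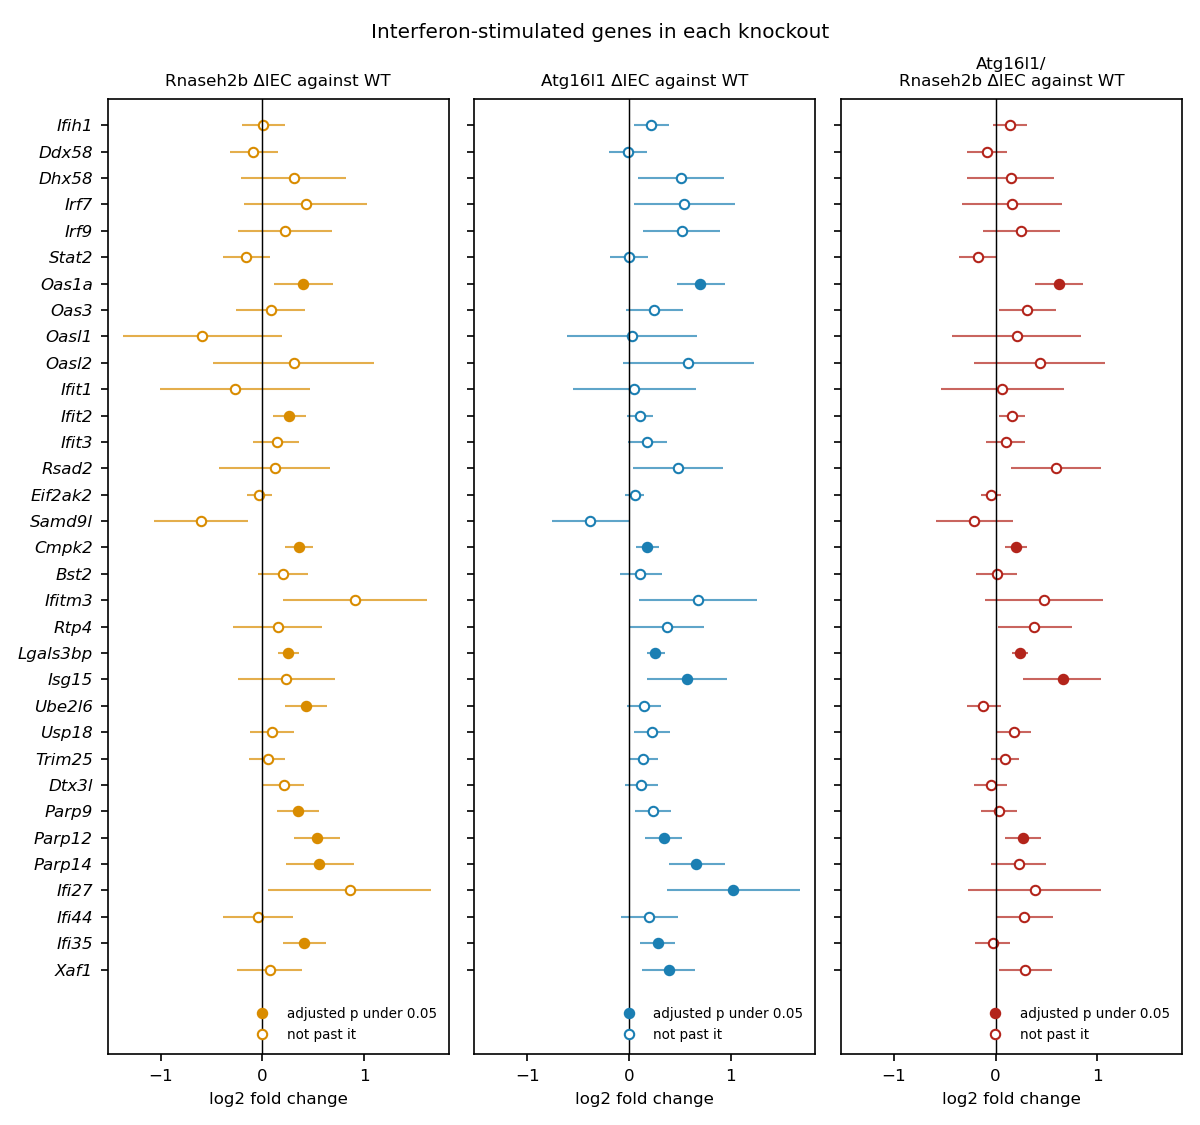
Log2 fold change of each of the 33 tested members against WT in Rnaseh2b ΔIEC, Atg16l1 ΔIEC and Atg16l1/Rnaseh2b ΔIEC organoids; points are limma estimates, lines are 95% confidence intervals, and filled points have an adjusted p under 0.05. The 9, 9 and 5 filled points all lie to the right of 0, and the intervals are widest for members such as Oasl1 and Oasl2 that vary between libraries of a genotype.

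Deletion of *Atg16l1* alone was compared next, against the same WT libraries. In *Atg16l1* ΔIEC organoids 9 of 33 members rose and 0 fell, where 8.73% of all genes tested rose, 10.4% fell and 19.1% changed in either direction. Of the 33 members, 31 were higher than in WT. With the pairs as a random block, 3 of the 9, *Oas1a*, *Parp14* and *Lgals3bp*, stayed past the threshold, where 1.12% of all genes rose. With the pairs averaged no member passed, but hardly any other gene did, so that fit cannot decide. Among the 9, the largest changes were those of *Ifi27*, *Oas1a*, *Parp14* and *Isg15*.

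*Ifi27* (chromosome 12, 103434211 to 103440239), which encodes a small mitochondrial protein and is widely used as a marker of interferon exposure, was at 8.12, 8.13, 8.40 and 7.78 in WT, 8.77, 9.05, 9.68 and 9.01 in *Atg16l1* ΔIEC, 9.05 and 8.88 in *Rnaseh2b* ΔIEC and 7.74, 7.95, 8.97 and 9.32 in *Atg16l1/Rnaseh2b* ΔIEC libraries. All 6 single knockout libraries were above all WT libraries, while *Atg16l1/Rnaseh2b* ΔIEC libraries 1 and 2 lay within or just below the WT range and libraries 3 and 4 within the single knockout range. The *Atg16l1* ΔIEC change was 1.02 (standard error 0.30, limma adjusted p = 0.032), the largest of any tested member in this comparison and a 2.03-fold difference. *Oas1a* (chromosome 5, 120896256 to 120907521), whose product makes the 2′-5′-linked oligoadenylates that activate RNase L, was at 6.85, 6.96, 6.93 and 6.79 in WT, 7.65, 7.51, 7.73 and 7.45 in *Atg16l1* ΔIEC, 7.33 and 7.24 in *Rnaseh2b* ΔIEC and 7.26, 7.30, 7.66 and 7.82 in *Atg16l1/Rnaseh2b* ΔIEC libraries. Every knockout library exceeded every WT library. The *Atg16l1* ΔIEC change was 0.70 (standard error 0.11, limma adjusted p = 0.00099).

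*Isg15* (chromosome 4, 156199424 to 156200818) was at 4.69, 4.75, 4.82 and 4.71 in WT, 5.06, 5.31, 5.63 and 5.27 in *Atg16l1* ΔIEC, 5.01 and 4.93 in *Rnaseh2b* ΔIEC and 4.89, 5.13, 5.67 and 5.91 in *Atg16l1/Rnaseh2b* ΔIEC libraries. As for *Oas1a*, no knockout library reached down into the WT range. Its *Atg16l1* ΔIEC change was 0.57 (standard error 0.18, limma adjusted p = 0.041). *Xaf1*, which binds the apoptosis inhibitor XIAP, was at 4.45, 4.37, 4.52 and 4.30 in WT, 4.64, 4.76, 4.98 and 4.83 in *Atg16l1* ΔIEC, 4.52 and 4.44 in *Rnaseh2b* ΔIEC and 4.45, 4.42, 4.94 and 5.0 in *Atg16l1/Rnaseh2b* ΔIEC libraries. Here the *Rnaseh2b* ΔIEC libraries lay in the WT range and the *Atg16l1* ΔIEC libraries did not. The *Atg16l1* ΔIEC change was 0.39 (standard error 0.12, limma adjusted p = 0.039).

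*Parp14* (0.66), *Parp12* (0.34), *Ifi35* (0.28), *Lgals3bp* (0.26) and *Cmpk2* (0.18) also rose in *Atg16l1* ΔIEC organoids. For each of the 9 members that rose, the exact permutation test (two-sided, 4 against 4 libraries) gave p = 0.029, the smallest it allows, a test that treats the paired libraries as independent. The transcription factors *Irf9* (0.52, limma adjusted p = 0.052) and *Irf7* (0.54, limma adjusted p = 0.11) and the RNA sensor *Dhx58* (LGP2; 0.51, limma adjusted p = 0.085) had changes of similar size with more spread. The RNA sensors *Ifih1* (MDA5) and *Ddx58* (RIG-I, also called *Rigi*) were at 0.22 and -0.01, neither past the threshold. In all, 16 members lay wholly above WT and 0 wholly below, against 11.5% and 13.1% of all genes. The *Atg16l1* ΔIEC libraries also differed by pair, since 25 of 33 members were higher in both libraries 3 and 4 than in both libraries 1 and 2, where 30.6% of all genes were, and the median difference was 0.26. Enterocyte markers moved the same way, with medians of 0.04, -0.04, 0.63 and 0.37 in libraries 1 to 4, and Paneth cell markers the opposite way, with 0.01, 0.15, -0.47 and -0.43. Goblet cell markers were lower than in WT for 6 of 6 genes in both *Atg16l1* ΔIEC (median -0.53, 4 past the threshold) and *Rnaseh2b* ΔIEC organoids (median -0.52, 3 past it). Stem cell markers were lower for 7 of 7 genes in both, with medians of -0.52 (7 past the threshold) and -0.24 (2 past it). The part of these cell types in the results was not tested. Without *Atg16l1* ΔIEC library 4 the count of members that rose was 4, without *Atg16l1* ΔIEC library 3 or any WT library it was 5, and without *Atg16l1/Rnaseh2b* ΔIEC library 1, which adds only to the estimate of spread, it was 15. Of all 12802 genes tested, 721 rose without *Atg16l1* ΔIEC library 4 and 760 without *Atg16l1* ΔIEC library 3. Between 802 and 934 rose without a WT library, and 1314 without *Atg16l1/Rnaseh2b* ΔIEC library 1.

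**Figure D3:**
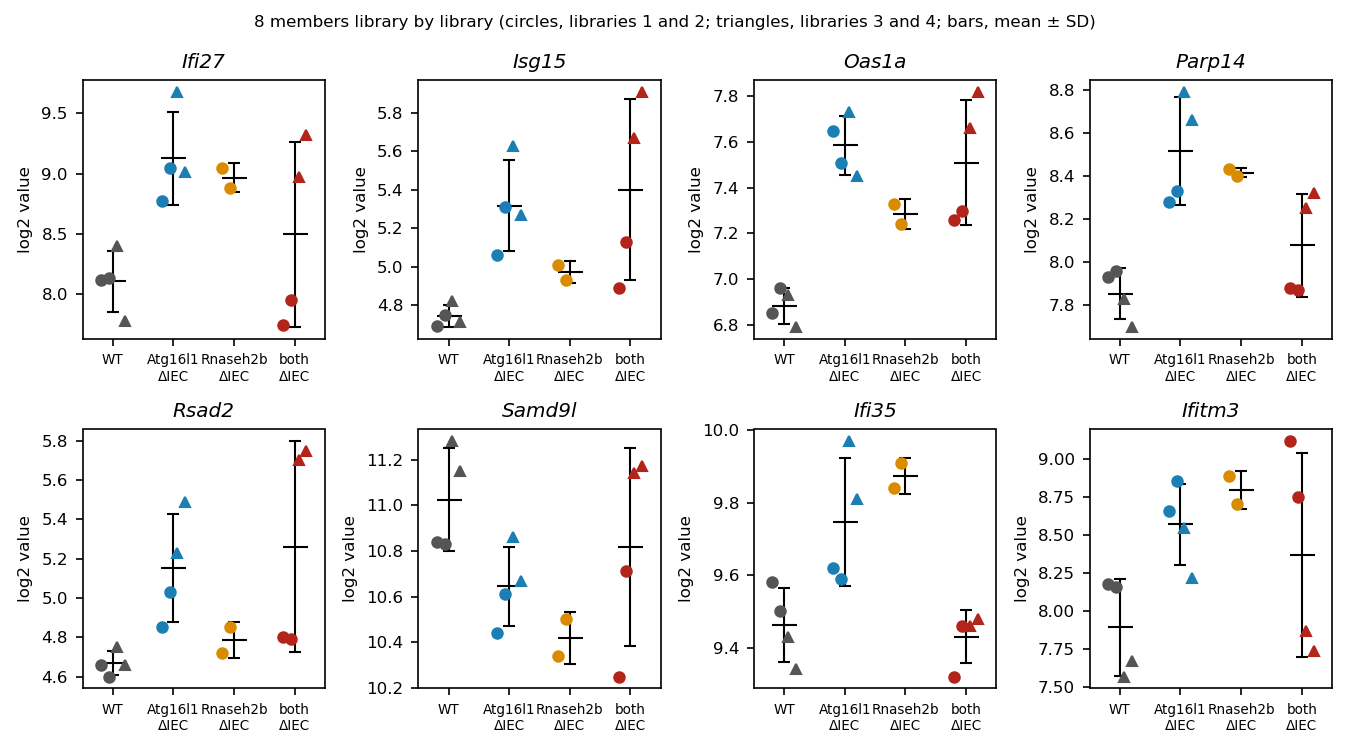
Log2 values of 8 members in every library; circles are libraries 1 and 2 and triangles libraries 3 and 4 of a genotype, and black bars give the mean and SD of the genotype (n = 4, 4, 2 and 4; "both" stands for Atg16l1/Rnaseh2b ΔIEC). For Ifi27, Rsad2, Isg15 and Oas1a the Atg16l1/Rnaseh2b ΔIEC triangles lie above the circles, for Ifitm3 below them (7.87 and 7.74 against 9.12 and 8.75), and for Ifi35 all 4 lie near WT.

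The third comparison with WT concerned the loss of both genes. In *Atg16l1/Rnaseh2b* ΔIEC organoids 5 of 33 members rose and 0 fell, where 8.1% of all genes tested rose, 8.01% fell and 16.1% changed in either direction. With the library pairs as a random block 0 of the 5 stayed past the threshold, where 0.281% of all genes rose. With the pairs averaged no gene tested passed, so that fit cannot decide. The 5 that rose were *Isg15* (0.66, standard error 0.18, limma adjusted p = 0.028), *Oas1a* (0.62, standard error 0.11, limma adjusted p = 0.0041), *Parp12* (0.27), *Lgals3bp* (0.24) and *Cmpk2* (0.20). *Lgals3bp* was at 13.23, 13.17, 13.20 and 13.16 in WT, 13.50, 13.45, 13.47 and 13.39 in *Atg16l1* ΔIEC, 13.47 and 13.41 in *Rnaseh2b* ΔIEC and 13.39, 13.34, 13.47 and 13.50 in *Atg16l1/Rnaseh2b* ΔIEC libraries. *Cmpk2*, a mitochondrial nucleotide kinase that neighbours *Rsad2* on chromosome 12, was at 5.36, 5.41, 5.39 and 5.44 in WT, 5.61, 5.58, 5.52 and 5.59 in *Atg16l1* ΔIEC, 5.71 and 5.81 in *Rnaseh2b* ΔIEC and 5.51, 5.50, 5.67 and 5.71 in *Atg16l1/Rnaseh2b* ΔIEC libraries. Both genes changed little but with little spread, and every knockout library was above every WT library. In all, 6 members lay wholly above WT and 1 wholly below, against 11.4% and 10.9% of all genes. The count past the threshold was 2 without WT library 1 or 2 or without *Atg16l1/Rnaseh2b* ΔIEC library 3 or 4, and 3 without WT library 4. Of all 12802 genes tested, 1012, 1001, 1824, 2074 and 1800 were past it in these fits, in the order given.

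Several members that stood far above WT in *Atg16l1/Rnaseh2b* ΔIEC libraries 3 and 4 did not pass that test. *Rsad2* (viperin, which makes a chain-terminating nucleotide) was at 4.66, 4.60, 4.75 and 4.66 in WT and 4.80, 4.79, 5.70 and 5.75 in *Atg16l1/Rnaseh2b* ΔIEC libraries. *Oasl2* was at 6.97, 6.74, 7.30 and 6.83 in WT and 6.60, 6.88, 7.91 and 8.20 in *Atg16l1/Rnaseh2b* ΔIEC libraries. In both genes libraries 3 and 4 were about 1 unit above WT and libraries 1 and 2 close to it. These 2 genes, with *Samd9l* and *Ifitm3*, were chosen for display after their values were seen.

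Over the set, 30 of 33 members were higher in both *Atg16l1/Rnaseh2b* ΔIEC libraries 3 and 4 than in both libraries 1 and 2, and 1 was lower, where 33.7% and 35.5% of all genes tested separated in these directions. The size of the gap set the members further apart, since 14 of 33 had a gap above 0.5, against 2.66% of all genes. In WT organoids libraries 3 and 4 were the higher pair for 9 members and the lower pair for 9, where 34.4% of all genes were higher. The *Atg16l1/Rnaseh2b* ΔIEC gap was 1.32 for *Oasl2*, 1.31 for *Ifi27*, 1.27 for *Oasl1*, 1.19 for *Ifit1*, which binds viral RNA lacking host cap methylation, and 0.93 for *Rsad2*. It was small for *Ube2l6* (-0.01), *Eif2ak2* (PKR, a kinase that halts translation; 0.08), *Ifi35* (0.08) and *Stat2* (0.14). By role, the *Oas* genes had a median gap of 0.93 (0.46 to 1.32) and the transcription factors 0.69 (0.14 to 0.88). It was 0.21 (0.15 to 0.41) for the ADP-ribosyltransferases and 0.23 (0.08 to 1.19) for the RNA and replication effectors. The ranges overlap, the roles hold 3 to 7 genes each, and gaps of low genes are understated by the transformation. *Ifitm3*, which blocks fusion of enveloped viruses, ran the other way. It was at 8.18, 8.16, 7.57 and 7.67 in WT, 8.66, 8.86, 8.55 and 8.22 in *Atg16l1* ΔIEC, 8.89 and 8.71 in *Rnaseh2b* ΔIEC and 9.12, 8.75, 7.87 and 7.74 in *Atg16l1/Rnaseh2b* ΔIEC libraries, so that libraries 3 and 4 were the lower pair in each genotype that had 2 pairs.

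**Figure D4:**
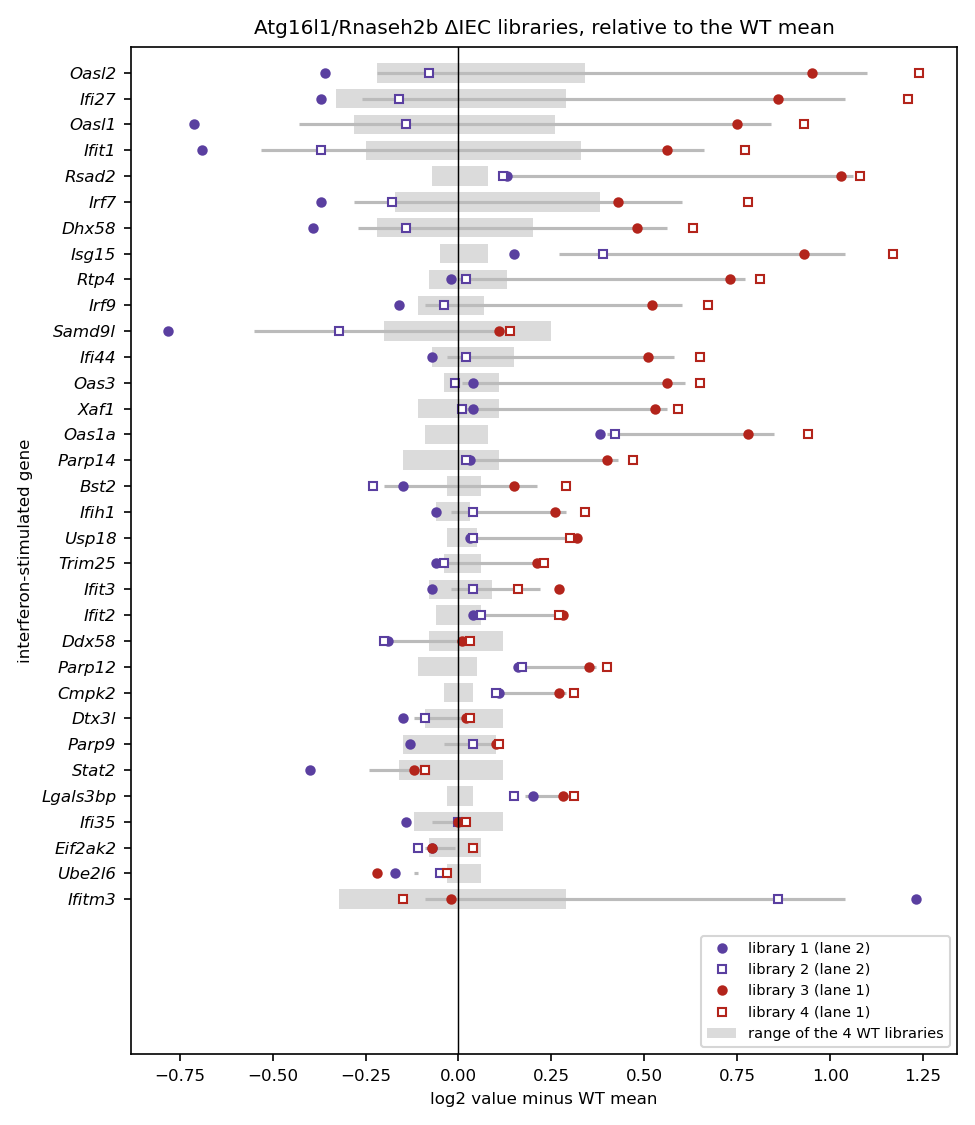
Each tested member in the 4 Atg16l1/Rnaseh2b ΔIEC libraries as log2 value minus the WT mean; purple marks are libraries 1 and 2 (lane 2), red marks libraries 3 and 4 (lane 1), grey lines join the means of the pairs, and grey bars span the 4 WT libraries. Red marks lie right of purple marks for 30 of 33 members. The marks of Stat2 and Ube2l6 overlap, and those of Ifitm3 at the bottom are reversed, with a gap of -1.13.

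Lane divides the *Atg16l1/Rnaseh2b* ΔIEC libraries into the same pairs, so that fits within a lane restate this split against other groups and are no separate evidence of it. Within lane 1, where *Atg16l1/Rnaseh2b* ΔIEC libraries 3 and 4 meet the 4 WT libraries, 21 of 33 members rose and 0 fell (median 0.31), where 4.66% of all genes rose. The change was 1.10 for *Oasl2*, 1.06 for *Rsad2*, 1.04 for *Isg15* and 1.04 for *Ifi27*. Within lane 2, where *Atg16l1/Rnaseh2b* ΔIEC libraries 1 and 2 meet the single knockouts, 0 members rose and 14 fell against *Atg16l1* ΔIEC (median -0.26), where 12.3% of all genes fell. Against *Rnaseh2b* ΔIEC organoids 0 rose and 10 fell (median -0.15), where 1540 of all 12802 genes tested fell and 21.0% changed in either direction. *Ifi27* differed by -1.29 from *Atg16l1* ΔIEC and by -1.12 from *Rnaseh2b* ΔIEC organoids, and *Irf7*, the factor that amplifies interferon production, by -0.82 and -0.71. Each of these fits rests on 1 pair of *Atg16l1/Rnaseh2b* ΔIEC libraries. With *Atg16l1/Rnaseh2b* ΔIEC libraries 3 and 4 alone, by contrast, 9 members rose and 1 fell against *Atg16l1* ΔIEC organoids, where 24.2% of all genes changed, and 13 rose and 3 fell against *Rnaseh2b* ΔIEC organoids, where 31.0% changed. Whether the members were higher or lower in *Atg16l1/Rnaseh2b* ΔIEC than in single knockout organoids therefore turned on the pair of libraries used. The immune markers summed to 127 and 148 in *Atg16l1/Rnaseh2b* ΔIEC libraries 1 and 2 and to between 153 and 165 in libraries 3 and 4, on the linear scale over 8 genes, with *Itgax* near 0, and enterocyte marker medians were -0.12, 0.16, -0.37 and -0.28. Paneth cell markers were higher than the WT mean in all 4 libraries (0.89, 0.44, 0.50 and 0.42), as were goblet cell markers (0.41, 0.28, 0.25 and 0.15). The part of these cell types in the results was not tested.

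With all 4 *Atg16l1/Rnaseh2b* ΔIEC libraries, few members separated the double from the single knockouts. Against *Rnaseh2b* ΔIEC organoids 0 rose and 3 fell, where 11.1% of all genes rose and 14.4% fell (25.5% in all), namely *Ube2l6* (-0.54, standard error 0.09, limma adjusted p = 0.0018), *Ifi35* (-0.44, standard error 0.10, limma adjusted p = 0.0057) and *Parp9* (-0.32, standard error 0.10, limma adjusted p = 0.032). Against *Atg16l1* ΔIEC organoids 0 rose and 3 fell, where 12.6% rose and 12.5% fell (25.1% in all), namely *Parp14* (-0.44), *Ifi35* (-0.31) and *Ube2l6* (-0.27). *Ifi35* was the 1 member whose 4 *Atg16l1/Rnaseh2b* ΔIEC libraries all lay below all *Atg16l1* ΔIEC libraries, as did 11.8% of all genes (exact permutation p = 0.029, two-sided, the smallest possible with 4 against 4). The 2 comparisons share the *Atg16l1/Rnaseh2b* ΔIEC libraries. With the pairs as a random block, *Ube2l6* stayed past the threshold against *Rnaseh2b* ΔIEC organoids, where 3.9% of all genes fell, and 0 members did against *Atg16l1* ΔIEC organoids, where 1.82% fell. *Ifi35* and *Ube2l6* belong to the members with the smallest gap between the *Atg16l1/Rnaseh2b* ΔIEC pairs. The counts ranged from 1 without *Rnaseh2b* ΔIEC library 2 and 2 without *Rnaseh2b* ΔIEC library 1 to 5 without *Atg16l1/Rnaseh2b* ΔIEC library 4 or *Atg16l1* ΔIEC library 3 and 6 without *Atg16l1/Rnaseh2b* ΔIEC library 1 in the first comparison, and from 1 without *Atg16l1* ΔIEC library 3, *Atg16l1* ΔIEC library 4 or *Atg16l1/Rnaseh2b* ΔIEC library 1 to 5 without *Atg16l1/Rnaseh2b* ΔIEC library 4 in the second. Of all 12802 genes tested, 757, 1337, 2805, 3225 and 3288 were past the threshold in these fits of the first comparison, in the order given. In the second they were 1827, 1832, 2574 and 2764.

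Between the single knockouts themselves, *Rnaseh2b* ΔIEC against *Atg16l1* ΔIEC, 0 of 33 members passed the threshold by limma, 3 had an unadjusted p under 0.05, and 6.81% of all genes tested changed. The median was -0.14, and the *Oas* genes were lower in *Rnaseh2b* ΔIEC organoids in 4 of 4 cases, with a median of -0.29. Both groups ran in lane 2.

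The last test asked whether deletion of *Rnaseh2b* had the same effect with and without *Atg16l1* deletion, by the difference of both effects. WT ran in lane 1, both single knockouts in lane 2 and the double knockout in both lanes. Lane therefore enters this difference and cannot be told apart from genotype in it. The difference was past the threshold for 11 of 33 members, 1 positive and 10 negative, where 35.1% of all genes were past it and 18.1% were negative. The members' share was thus near that of all genes, and 10 of the 11 had the same sign. The count was 7 without *Rnaseh2b* ΔIEC library 1 and 6 without library 2, where 2981 and 2706 of all 12802 genes tested were past the threshold. With the pairs as a random block it was 5, namely *Ifi35*, *Parp9*, *Parp12*, *Parp14* and *Ube2l6*, where 6.83% of all genes were negative. For *Ifi27* the effect of *Rnaseh2b* deletion was 0.86 without *Atg16l1* deletion and -0.63 with it, neither past the threshold alone. The difference was -1.49 (standard error 0.48, limma adjusted p = 0.028). For *Parp14* the effects were 0.56 and -0.44 and the difference -1.0 (standard error 0.20, limma adjusted p = 0.0023). For *Ifi35* they were 0.41 and -0.31 and the difference -0.72 (standard error 0.12, limma adjusted p = 0.00085). *Ube2l6* (-0.69), *Parp12* (-0.61), *Parp9* (-0.55), *Oas1a* (-0.48), *Dtx3l* (-0.38), *Cmpk2* (-0.34) and *Lgals3bp* (-0.28) followed the same direction, and *Samd9l* (0.77, limma adjusted p = 0.045) the opposite one. In *Oas1a*, *Parp12*, *Cmpk2* and *Lgals3bp* the *Atg16l1/Rnaseh2b* ΔIEC level stayed near the *Atg16l1* ΔIEC level, at differences between -0.08 and 0.02 (limma adjusted p from 0.52 to 0.80).

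**Figure D5:**
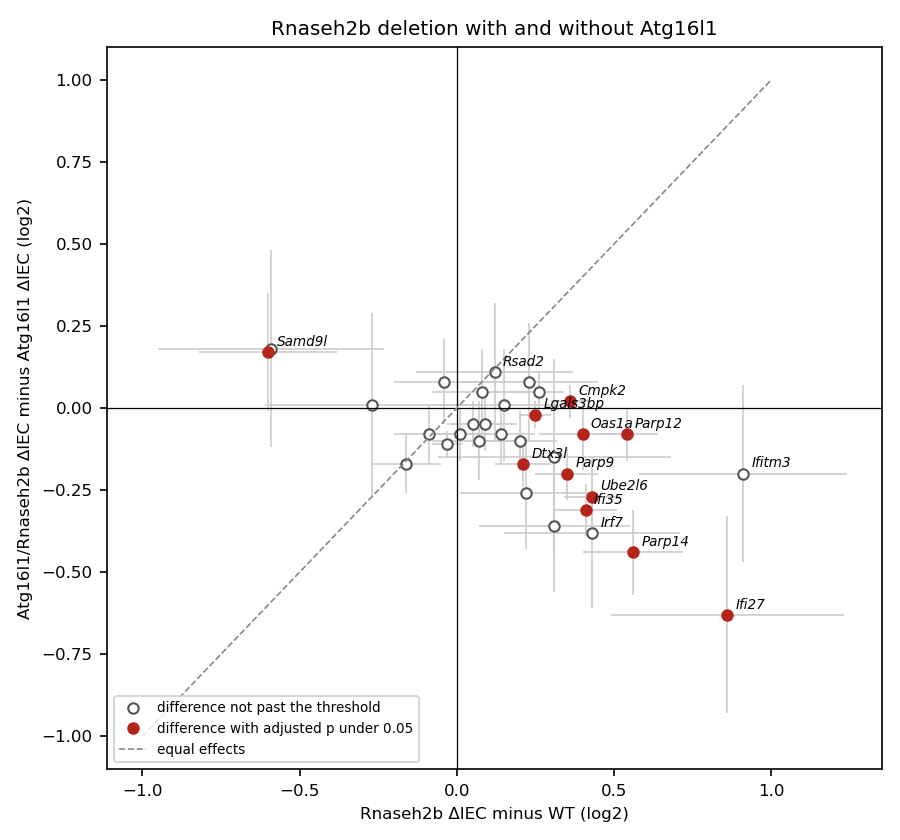
Effect of Rnaseh2b deletion on each tested member with Atg16l1 present (x axis, Rnaseh2b ΔIEC minus WT) and deleted (y axis, Atg16l1/Rnaseh2b ΔIEC minus Atg16l1 ΔIEC), both log2; grey lines are standard errors, the dashed line marks equal effects, and red points differ with an adjusted p under 0.05. Of the 11 red points, 10 lie below the dashed line, with Ifi27 at 0.86 and -0.63, and Samd9l lies above it.

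These differences depended on the pair of *Atg16l1/Rnaseh2b* ΔIEC libraries. With libraries 1 and 2 alone 21 members were past the threshold, 0 of them positive, where 33.4% of all genes were past it, and with libraries 3 and 4 alone 13 were, 4 positive and 9 negative, where 41.4% of all genes were. With lane as a covariate, which in this design is estimated from the *Atg16l1/Rnaseh2b* ΔIEC pairs only, 26 members were past it, 0 of them positive, where 20.2% of all genes were, while *Samd9l* turned to -0.24 (limma adjusted p = 0.62).

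Of the 33 tested members, 14 were past the threshold in at least 1 of the 7 comparisons and 19 in none. Among the 19 were the RNA-binding *Ifit1* and *Ifit3*, *Oas3*, *Oasl1*, *Oasl2*, *Rsad2*, the sensors *Ifih1*, *Ddx58* and *Dhx58*, the factors *Irf7*, *Irf9* and *Stat2*, *Bst2*, *Ifitm3* and the microtubule-associated *Ifi44*. *Eif2ak2* and *Stat2* hardly differed from WT, at -0.03, 0.06 and -0.05 and at -0.16, 0.00 and -0.17 in *Rnaseh2b* ΔIEC, *Atg16l1* ΔIEC and *Atg16l1/Rnaseh2b* ΔIEC organoids. *Usp18*, which removes ISG15 and damps receptor signalling, was at 0.09, 0.23 and 0.18 and *Trim25* at 0.05, 0.14 and 0.09. *Rtp4*, a chaperone of receptors, was at 0.15, 0.37 and 0.38. *Ifitm3* had some of the largest changes, at 0.91, 0.68 and 0.48 (limma adjusted p = 0.056, 0.093 and 0.24), with the spread between pairs described above.

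The rest of the pathway was examined with lists of 82 genes, of which 67 had a row and 54 were tested. Of 10 interferon ligand genes listed, 9 had no row in the table and 1 had a mean below the filter, so the ligands were not analysed here. The receptors were expressed, as *Ifnlr1*, the specific chain of the type III receptor, was at 8.68 to 8.99 in the 14 libraries and *Ifnar1*, a chain of the type I receptor, at 10.35 to 10.59. Neither changed in any of the comparisons with WT, with changes of -0.12 to -0.10 for *Ifnlr1* (limma adjusted p from 0.14 to 0.31) and -0.09 to -0.04 for *Ifnar1* (limma adjusted p from 0.14 to 0.62). *Ifnar2* was at 0.29, 0.06 and -0.01 and *Il10rb*, the shared chain of the type III receptor, at 0.05, -0.07 and -0.15 in *Rnaseh2b* ΔIEC, *Atg16l1* ΔIEC and *Atg16l1/Rnaseh2b* ΔIEC organoids against WT, also not past the threshold. *Ifngr1*, a chain of the receptor for interferon gamma, fell in *Rnaseh2b* ΔIEC (-0.53, limma adjusted p = 0.0053) and *Atg16l1* ΔIEC organoids (-0.39, limma adjusted p = 0.011), and *Ifngr2* fell in *Atg16l1/Rnaseh2b* ΔIEC organoids (-0.25, limma adjusted p = 0.0009).

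*Irf3*, which drives interferon genes downstream of the sensors, fell by 0.23 in *Atg16l1* ΔIEC (limma adjusted p = 0.0081) and was at -0.17 in *Rnaseh2b* ΔIEC (limma adjusted p = 0.067) and -0.09 in *Atg16l1/Rnaseh2b* ΔIEC organoids (limma adjusted p = 0.24). *Irf1* was at 0.19, 0.15 and 0.09 against WT in *Rnaseh2b* ΔIEC, *Atg16l1* ΔIEC and *Atg16l1/Rnaseh2b* ΔIEC organoids and did not pass the threshold.

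A list of 45 further interferon-responsive genes, of which 29 were tested, was described in the same way. The share past the threshold was 34.5%, 44.8% and 10.3% for the 3 knockouts against WT, in the order *Rnaseh2b* ΔIEC, *Atg16l1* ΔIEC and the double knockout, beside 26.7%, 19.1% and 16.1% of all genes tested. By direction, 14.4%, 8.73% and 8.1% of all genes tested rose and 12.3%, 10.4% and 8.01% fell, in the same order. With the library pairs as a random block 0 of the listed genes rose and 1 fell in *Rnaseh2b* ΔIEC, 3 rose in *Atg16l1* ΔIEC and 0 changed in double knockout organoids. Of all 12802 genes tested, 428 rose and 300 fell in the first of these fits, 143 rose in the second and 85 changed in the third. In *Rnaseh2b* ΔIEC organoids 8 rose and 2 fell, among them the immunoproteasome subunit *Psmb9* (0.58), the peptide transporter *Tap1* (0.45) and the immunity-related GTPase *Igtp* (0.42). In *Atg16l1* ΔIEC organoids 12 rose and 1 fell, led by *Oas1g* (0.57), *Irgm2* (0.43) and *Igtp* (0.43). In *Atg16l1/Rnaseh2b* ΔIEC organoids 3 rose and 0 fell, and the largest rise was that of *Ddx60*, a helicase that promotes RIG-I signalling (1.05, limma adjusted p = 0.021), which was at 6.66, 7.0, 7.87 and 8.12 in the 4 libraries, against 6.17 to 6.69 in WT. *Psmb9*, by contrast, was at 6.82, 7.01, 6.64 and 6.64 in the *Atg16l1/Rnaseh2b* ΔIEC libraries and was lower than in *Rnaseh2b* ΔIEC organoids (-0.54, limma adjusted p = 0.012). Among 8 tested negative regulators, *Adar*, an RNA editing enzyme that limits sensing of self RNA, rose in *Atg16l1* ΔIEC organoids (0.21, limma adjusted p = 0.012), and 0 passed the threshold in *Rnaseh2b* ΔIEC or *Atg16l1/Rnaseh2b* ΔIEC organoids against WT. *Oas1a* and *Oas1g* are close copies on chromosome 5, and reads shared between them make their separate values uncertain.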

How the data were processed

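Expression was measured by RNA-seq in 14 organoid libraries. Per the study's methods, the authors ran cutadapt, TopHat2 (GRCm38), HTSeq and DESeq2, versions not given in the sources used here. The deposited values are on a log2 scale with an unnamed transformation that shrinks low genes, so their fold changes are understated. Read depth is unknown, and whole reads could not be recovered. Symbols and coordinates came from GENCODE M21 (99.7% of identifiers matched).

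Values were tested as deposited with limma 3.58.1 in R 4.3.3 (lmFit, contrasts.fit, eBayes with a mean trend), 1 mean per genotype, no covariate, two-sided, with Benjamini-Hochberg adjustment at 0.05 over the 12802 genes whose mean reached 3.32. The method was tested on simulated data. Members, lists and tests were chosen with earlier results of these data known. Library values are given for the 5 largest rises and falls past the threshold per comparison whose libraries did not overlap; other members are given by fold change. Lists of markers and pathway genes were described by counts. Promoter windows came from RefSeq (GRCm38.p6). Alternatives were pseudocounts, filters, scaling, lane, the replicate block, library pairs, fits of fewer libraries and leaving out each library. Sex as a covariate and fits with 1 *Atg16l1/Rnaseh2b* ΔIEC pair were added after seeing the data. Figures were drawn with matplotlib 3.10.9.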

Additional observations from a re-analysis of the deposited data

Results flagged for a closer look

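Among 99 checks of a single library against the other 3 of its genotype, 4 stood apart, near the share of 1 in 20 that chance flags. They were *Stat2* (9.44) and *Ifi35* (9.32), both low in *Atg16l1/Rnaseh2b* ΔIEC library 1, *Oas3*, high in WT library 3 (4.10), and *Ube2l6*, high in WT library 1 (7.92).

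The effect of *Rnaseh2b* deletion differed between organoids with and without *Atg16l1* deletion for 11 members by limma. Lane and genotype were not separated in this fit. The difference was negative for *Ifi27* (-1.49), *Parp14* (-1.0), *Ifi35* (-0.72), *Ube2l6* (-0.69), *Parp12* (-0.61), *Parp9* (-0.55), *Oas1a* (-0.48), *Dtx3l* (-0.38), *Cmpk2* (-0.34) and *Lgals3bp* (-0.28), and positive for *Samd9l* (0.77). Among all genes tested, 35.1% had such a difference, so the share of members was near that of other genes, while 10 of the 11 had the same sign.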

How the results depend on the processing

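Of 40 member changes past the threshold, recomputed in 1116 alternative fits, 904 stayed past it in the same direction, 211 did not reach it and 1 reversed, *Samd9l* in the difference of effects, at -0.24 with lane as a covariate. The counts of members past the threshold are given in the order *Rnaseh2b* ΔIEC against WT (9), *Atg16l1* ΔIEC against WT (9), *Atg16l1/Rnaseh2b* ΔIEC against WT (5), *Atg16l1/Rnaseh2b* ΔIEC against *Rnaseh2b* ΔIEC (3), *Atg16l1/Rnaseh2b* ΔIEC against *Atg16l1* ΔIEC (3), *Rnaseh2b* ΔIEC against *Atg16l1* ΔIEC (0) and the difference of effects (11). They were 21, 23, 22, 12, 20, 4 and 26 with lane as a covariate, a term set by the difference between the *Atg16l1/Rnaseh2b* ΔIEC pairs. Of all 12802 genes tested, 1504, 1586, 1418, 3466, 3976, 1622 and 2580 were then past the threshold. In the main fits these were 3424, 2450, 2063, 3262, 3218, 872 and 4499. None of the member changes stayed past the threshold when the library pairs were averaged, but hardly any of all genes tested passed there. That fit leaves 1 value for *Rnaseh2b* ΔIEC organoids and cannot decide on the members. With the pairs as a random block (consensus correlation 0.65) the members' counts were 2, 3, 0, 1, 0, 0 and 5, beside 728, 384, 85, 692, 478, 61 and 1553 of all genes. With only the groups compared they were 16, 21 and 3 in the comparisons with WT and 1 in *Atg16l1/Rnaseh2b* ΔIEC against *Atg16l1* ΔIEC. Of all genes, 4054, 2383, 1260 and 2065 were past the threshold there. Within lane 1, *Atg16l1/Rnaseh2b* ΔIEC against WT gave 21, and within lane 2, *Atg16l1/Rnaseh2b* ΔIEC against *Rnaseh2b* ΔIEC gave 10, *Atg16l1/Rnaseh2b* ΔIEC against *Atg16l1* ΔIEC 14 and *Rnaseh2b* ΔIEC against *Atg16l1* ΔIEC 2. The counts over all genes in these fits were 1311, 2683, 3128 and 1056. A filter of 50, which removes low members, left 3 in *Atg16l1/Rnaseh2b* ΔIEC against WT, beside 1916 of the 10997 genes then tested. Leaving out 1 library gave 3 to 11, 4 to 15, 2 to 6, 1 to 6, 1 to 5, 0 to 1 and 6 to 13. Over all genes tested these ranges were 1135 to 3832, 1659 to 2870, 1001 to 2074, 757 to 3288, 1827 to 3470, 90 to 1105 and 2706 to 4714. After seeing the data, sex as a covariate gave 1 in *Rnaseh2b* ΔIEC against *Atg16l1* ΔIEC, beside 926 of all genes. With *Atg16l1/Rnaseh2b* ΔIEC libraries 3 and 4 alone, *Atg16l1/Rnaseh2b* ΔIEC against WT, *Rnaseh2b* ΔIEC and *Atg16l1* ΔIEC gave 19, 16 and 10, beside 1347, 3967 and 3104 of all genes. With libraries 1 and 2 alone, *Atg16l1/Rnaseh2b* ΔIEC against WT gave 5, of which 3 rose and 2 fell. The last 2 of these comparisons and the difference of effects gave 12, 15 and 21. Over all genes the 4 counts were 3440, 2988, 3388 and 4281. Except where stated, the cause was not tested.

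The replicate numbers did not pair libraries across genotypes, since same-numbered libraries correlated at -0.50 to 0.44 and 7 of 18 pairs exceeded 0.1. With the replicate block the counts were 12, 17, 8, 4, 3, 0 and 16, and all 40 calls stayed past the threshold. Over all genes the counts were 2890, 2666, 2125, 2994, 3355, 424 and 4484. The main limits are the single pair of *Rnaseh2b* ΔIEC libraries, the overlap of lane, pair and sex, and the unknown depth and transformation.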
